A study of Homo sapiens with 10 samples.

Results

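The genes described here are the metallothioneins MT2A, MT1X, MT1E, MT1F, MT1G and MT1M, the transcription factor MTF1 and the zinc exporter SLC30A1, 8 of the 58302 genes in the deposited table. They were found by gene symbol, and they had been selected on their values in these same libraries. The differences between groups are therefore given as a description, and no test of them is read as a result. RNA sequencing covered 10 libraries of KYSE-410, a human cell line established from a squamous cell carcinoma of the oesophagus. The cells of every group had been transfected with CRISPR/Cas9 nickase plasmids and a GFP reporter: the control was 1 colony that received the vector without a guide RNA (genotype WT, empty vector), and D4, G4, G10 and H3 were each a single sorted clone edited to knock out SHIP2, the phosphoinositide phosphatase encoded by INPPL1. There were 2 libraries in each of the 5 groups. The labels number them as replicates and do not say whether they came from separate cultures, so the error here is the spread between libraries of 1 colony or clone, and effects of the edit and of cloning cannot be told apart. The labels name no metal, drug or time course.

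Metallothioneins are very small proteins rich in cysteine, whose thiol groups bind zinc, copper and cadmium. In human cells their genes lie side by side on chromosome 16, and MTF1, a zinc finger factor that senses free zinc, drives them through short promoter motifs called metal response elements. MTF1 also drives SLC30A1, which encodes ZnT1, the transporter of the plasma membrane that moves zinc out of the cell, and metallothionein genes respond in addition to glucocorticoids and to oxidant stress.

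The coding sequences show why the family is read with caution in short-read data. All 6 metallothionein genes had 3 exons in the GENCODE release 29 annotation of hg38, and each coded for 20 cysteines in 61 residues (32.8%), or 62 residues (32.3%) in MT1G. The 3 with the most reads are shown from start to stop codon, on chromosome 16 and the forward strand, with the cysteine codons in capitals.
MT2A: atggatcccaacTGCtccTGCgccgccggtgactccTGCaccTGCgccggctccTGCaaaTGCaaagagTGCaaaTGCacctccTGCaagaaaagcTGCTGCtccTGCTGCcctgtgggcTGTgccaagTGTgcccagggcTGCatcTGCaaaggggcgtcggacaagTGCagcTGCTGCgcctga
MT1X: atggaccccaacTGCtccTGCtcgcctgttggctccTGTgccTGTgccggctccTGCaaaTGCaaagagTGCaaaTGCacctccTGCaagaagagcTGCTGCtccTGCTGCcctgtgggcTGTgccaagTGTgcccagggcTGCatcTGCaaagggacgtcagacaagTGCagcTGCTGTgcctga
MT1E: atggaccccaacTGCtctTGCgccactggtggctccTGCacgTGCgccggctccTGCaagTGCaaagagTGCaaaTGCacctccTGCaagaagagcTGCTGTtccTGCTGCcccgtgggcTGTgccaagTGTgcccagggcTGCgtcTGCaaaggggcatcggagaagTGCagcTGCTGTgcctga
Each line holds 20 cysteine codons. Over 186 aligned bases MT2A was 92.5% identical to MT1X and to MT1E, and 91.4% identical to MT1F. Across all pairs of the 6 genes identity ran from 88.7% (MT1X and MT1F) to 93.7% (MT2A and MT1G), and the longest identical stretch between transcripts ran from 32 to 96 bases. Whether reads that match several members were dropped or counted is not given in the sources used here, so the split of reads between members is uncertain.

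RefSeq promoters (GRCh38.p14) were available for 4 of the 8 members: MT2A, MT1X, SLC30A1 and MTF1. Those of MT2A, MT1X and SLC30A1 are shown, and that of MTF1, the factor itself, was searched but is not printed. Each line gives the 250 bases before the transcription start, 5′ to 3′ on the gene's strand, and the RefSeq start used here differs from the GENCODE gene ends given below. The MT2A window lies inside the GENCODE gene and the SLC30A1 window lies wholly upstream of it without touching it, so the matches depend on the start chosen. In each line capitals mark the metal response element core, spelled TGCACNC or TGCGCNC and searched on both strands. The windows are chr16:56608334-56608583 (plus strand) for MT2A, chr16:56682220-56682469 (plus strand) for MT1X and chr1:211579162-211579411 (minus strand) for SLC30A1.
MT2A: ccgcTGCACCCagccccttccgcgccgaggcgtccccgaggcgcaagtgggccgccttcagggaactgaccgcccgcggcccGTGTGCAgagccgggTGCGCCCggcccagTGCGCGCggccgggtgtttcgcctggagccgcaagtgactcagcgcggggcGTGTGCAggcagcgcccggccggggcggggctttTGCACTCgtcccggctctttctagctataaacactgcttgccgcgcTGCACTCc
MT1X: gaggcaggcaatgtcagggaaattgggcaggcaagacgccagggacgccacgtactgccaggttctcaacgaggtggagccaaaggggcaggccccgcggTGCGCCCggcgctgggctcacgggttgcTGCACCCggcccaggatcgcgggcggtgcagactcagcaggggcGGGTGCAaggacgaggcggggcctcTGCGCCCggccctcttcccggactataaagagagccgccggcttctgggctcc
SLC30A1: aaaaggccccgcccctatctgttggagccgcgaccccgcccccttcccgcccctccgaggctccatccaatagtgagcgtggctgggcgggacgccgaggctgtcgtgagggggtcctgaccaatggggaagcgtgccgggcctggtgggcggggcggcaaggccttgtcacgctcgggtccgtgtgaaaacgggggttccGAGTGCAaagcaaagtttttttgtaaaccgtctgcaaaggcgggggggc
The core matched 7 times in the MT2A window, 4 times in that of MT1X and 1 time in that of SLC30A1, with no overlapping matches. It matched 0 times in the window of MTF1 itself, at chr1:37859593-37859842 on the minus strand. Of 35116 promoters of the same length, 24.8% held at least 1 match, 0.37% at least 4 and 0.031% at least 7. In MT2A 5 matches read on the gene's strand and 2 on the opposite one, and the match nearest the start lay at positions -8 to -2. The single SLC30A1 match lay at -49 to -43 on the opposite strand. The MT2A window also held the AP-1 core TGACTCA at -104 to -98, a motif that, searched as TGACTCA or TGAGTCA, was found in 4.203% of promoters. It was absent from the other 3 windows. Matches of letters are a description and not evidence of binding.

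Depth was estimated by undoing the authors' scaling of the values and ran from 9653836 to 14253437 gene-assigned reads per library. Values are counts-per-million of gene-assigned reads (CPM). A value of 0 is compatible with as many as 3 reads (0.21 to 0.311 CPM), a limit for counting error only. INPPL1, the targeted gene, stood at 145 ± 6.95 CPM (SD, n = 2) in the control, at 61.0% of that level in D4, 44.8% in G4, 6.6% in G10 and 59.9% in H3. Squamous markers (7 genes, with KRT6A ranging from 4.75 to 919 CPM and TP63 from 83.7 to 222 CPM) summed to 1706 to 1741 CPM in the control and to 412 to 1029 CPM in the clones, while KRT14 stood at no more than 1.4 CPM anywhere. A list of 6 simple epithelial markers, carried by KRT8 and KRT18 with KRT20 at 0, summed to 785 to 843 CPM in the control and to 1109 to 2118 CPM in the clones. Fibroblast markers summed to 15.7 to 19.8 CPM in the control, 61.3 to 67.4 CPM in D4, 11.8 to 13.6 CPM in G4, 41.1 CPM in G10 and 131 to 136 CPM in H3, with LUM reaching 119 CPM and DCN no more than 0.2 CPM. Endothelial markers summed to 0.85 to 0.9 CPM in the control and 1.1 to 3.15 CPM in the clones. Immune markers, mainly CD68, summed to 37.3 to 38.6 CPM in the control and G4, and in D4, G10 and H3 to between 5.85 and 13.9 CPM. The squamous, simple epithelial, fibroblast and endothelial sums lay outside the control range in all 4 clones, as the metallothionein sum did, and the immune sum in D4, G10 and H3, and their part in the differences below was not tested. Each library pools many cells, so more cells expressing a gene and more RNA per cell cannot be told apart.

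MT2A (ENSG00000125148, chromosome 16, 56608199 to 56609497, plus strand, hg38), the main metallothionein of most human cells, was the most abundant member of the family in every library. Its level was 36.8 and 45.0 CPM in the control libraries, 125 and 173 CPM in D4, 75.3 and 98.1 CPM in G4, 131 and 164 CPM in G10, and 53.8 and 45.4 CPM in H3. D4 and G10 overlapped at the top, G4 lay between them and the rest, and the lower H3 library was barely above the higher control library. Against a control mean of 40.9 ± 5.83 CPM (SD, n = 2), the means were 149 ± 33.8 CPM in D4 (3.64-fold), 147 ± 22.7 CPM in G10 (3.61-fold), 86.7 ± 16.2 CPM in G4 (2.12-fold) and 49.6 ± 5.94 CPM in H3 (1.21-fold). On the log2(CPM + 1) scale the differences were 1.83 in D4, 1.82 in G10, 1.06 in G4 and 0.27 in H3, each with a standard error of 0.22. The H3 difference is about the size of its own error. The gene rested on 412 to 2332 estimated reads per library, so counting error is small beside the gap between libraries of a group: replicate 2 stood at 1.22 times replicate 1 in the control, 1.38 in D4, 1.30 in G4 and 1.24 in G10, and at 0.844 times in H3.

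MT1X (ENSG00000187193, chromosome 16, 56682424 to 56684196, plus strand), a second metal-inducible isoform, gave the closest replicates of the family. It stood at 7.54 and 7.35 CPM in the control, 32.2 and 33.0 CPM in D4, 12.3 and 12.045 CPM in G4, 20.7 and 21.4 CPM in G10, and 19.3 and 18.8 CPM in H3. No library of one group overlapped any of another, and the order was D4, G10, H3, G4 and control. The fold over the control mean of 7.45 ± 0.141 CPM (SD, n = 2) was 4.38 in D4, 2.83 in G10, 2.56 in H3 and 1.64 in G4. The log2 differences were 1.99, 1.38, 1.25 and 0.64 in that order, with a standard error of 0.10.

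A processed transcript, AC026461.1 (chromosome 16, 56682470 to 56687807, plus strand), shares 321 of its 551 exon bases with MT1X. Its level was 73.2% to 88.7% of that of MT1X in every library. Its log2 differences were 1.81 in D4, 0.48 in G4, 1.17 in G10 and 1.1 in H3, close to those of MT1X. It overlaps MT1X on the same strand, and how reads over shared exons were assigned is not given in the sources used here, so the MT1X level is uncertain.

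MT1E (ENSG00000169715, chromosome 16, 56625475 to 56627112, plus strand), a further isoform of the same cluster, was low. Its libraries held 3.50 and 2.998 CPM in the control, 10.3 and 10.4 CPM in D4, 3.998 and 4.65 CPM in G4, 10.7 and 9.09 CPM in G10, and 5.95 and 5.90 CPM in H3. All 8 clone libraries lay above both control libraries. D4 (3.18-fold) and G10 (3.05-fold) overlapped, with H3 (1.82-fold) and then G4 (1.33-fold) beneath them. The log2 differences were 1.42 in D4, 1.36 in G10, 0.71 in H3 and 0.33 in G4, with a standard error of 0.15.

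MT1F (ENSG00000198417, chromosome 16, 56657694 to 56660698, plus strand) was close to the limit of counting, with 8 to 54 estimated reads per library. The control libraries held 0.849 and 0.799 CPM, those of D4 2.55 and 4.05 CPM, of G4 1.70 and 0.80 CPM, of G10 2.30 and 2.55 CPM, and of H3 4.197 and 4.10 CPM. Here H3 stood highest (5.03-fold of the control mean), followed by D4 (4.002-fold) and G10 (2.94-fold), and G4 overlapped the control. The log2 differences, 1.50 in H3, 1.21 in D4, 0.91 in G10 and 0.27 in G4 with a standard error of 0.22, understate the folds of so low a gene because 1 is added to each value.

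MT1G (ENSG00000125144, chromosome 16, 56666731 to 56668065, minus strand) reached at most 0.4 CPM, in a D4 library, with 11 estimated reads in all 10 libraries. MT1M (ENSG00000205364, chromosome 16, 56632233 to 56633986, plus strand) had a value of 0 in every library. Neither passed the filter of at least 1 CPM in at least 2 libraries, so 6 of the 8 members entered the fit. Of 14 other metallothionein symbols in the table, 8 were above 0 somewhere (MT1A, MT1H, MT1HL1, MT1JP, MT1L, MT1P1, MT1XP1 and MT2P1) and none of these exceeded 0.3 CPM. The other 6 (MT1B, MT1CP, MT1DP, MT1P3, MT3 and MT4) were at 0 in every library.

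**Figure D1:**
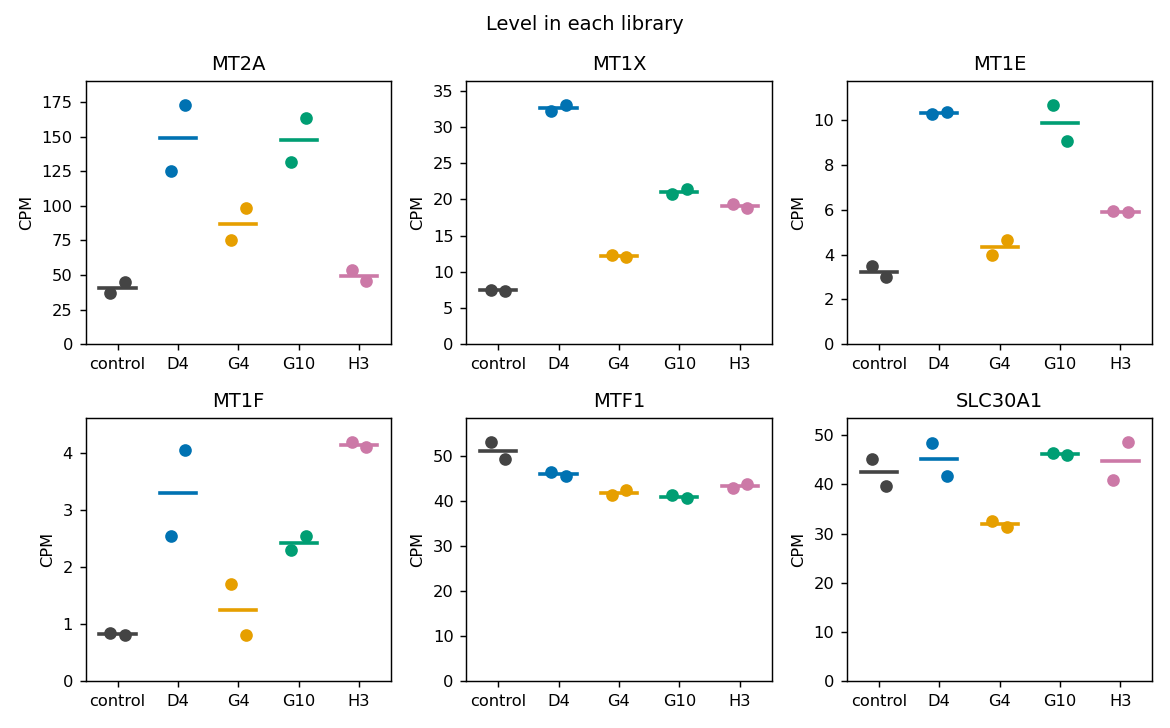
Level in CPM (y axis, linear, from 0) of the 6 members that passed the filter, by group (x axis), with a point for each of the 2 libraries and a bar at their mean. MT2A, MT1X and MT1E lie above both control libraries in all 8 clone libraries, MTF1 lies below them, and SLC30A1 lies below them only in G4.

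MTF1 (ENSG00000188786, chromosome 1, 37809567 to 37859620, minus strand), the zinc-sensing activator of the family, stood lower in every clone library than in either control library. The control libraries held 53.1 and 49.2 CPM, D4 46.3 and 45.6 CPM, G4 41.2 and 42.4 CPM, G10 41.2 and 40.6 CPM, and H3 42.8 and 43.7 CPM. The means were 89.8% of the control in D4, 84.6% in H3, 81.7% in G4 and 79.97% in G10, so the spread among clones was small and G4 and G10 overlapped. The log2 differences were -0.15 in D4, -0.24 in H3, -0.28 in G4 and -0.31 in G10, with a standard error of 0.08. These are levels of the transcript, and MTF1 is known to be regulated mainly as a protein, by zinc binding and entry into the nucleus.

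SLC30A1 (ENSG00000170385, chromosome 1, 211571568 to 211578742, minus strand), the zinc exporter, did not share the pattern of the metallothioneins. Its level was 45.3 and 39.6 CPM in the control, 48.4 and 41.8 CPM in D4, 32.6 and 31.4 CPM in G4, 46.4 and 46.0 CPM in G10, and 41.0 and 48.7 CPM in H3. D4 and H3 overlapped the control, both G10 libraries lay just above it, and both G4 libraries lay below every other library. G4 stood at 75.5% of the control mean of 42.4 ± 3.99 CPM (SD, n = 2) and G10 at 109%. The log2 differences were -0.39 in G4, 0.12 in G10, 0.09 in D4 and 0.08 in H3, with a standard error of 0.10. The ratio of MT2A to SLC30A1 was 0.812 and 1.14 in the control, 2.31 to 4.13 in the 6 libraries of D4, G4 and G10, and 1.31 and 0.932 in H3. H3 thus overlapped the control in this ratio and the other 3 clones did not.

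**Figure D2:**
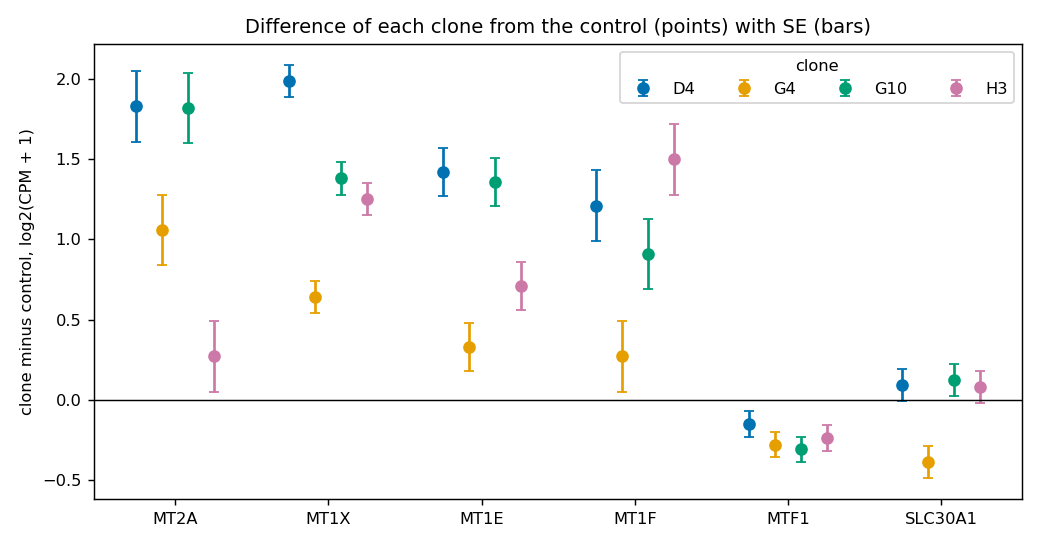
Clone minus control in log2(CPM + 1) units (y axis) for the 6 members tested (x axis), with bars of 1 standard error. The 4 metallothioneins lie at 0.27 to 1.99, MTF1 at -0.31 to -0.15 and SLC30A1 at -0.39 to 0.12.

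Counted against all genes, the members can be set beside a high background, since many genes differed between any clone and this control. In D4, 17.5% of the 17664 genes tested were higher and 23.8% lower at a limma adjusted p under 0.05 (Benjamini-Hochberg). The shares were 10.9% and 16.4% in G4, 17.8% and 19.1% in G10, and for H3 23.9% and 22.1%. Of the 6 members tested, the same rule held for 4 higher and 0 lower in D4, for 2 higher (MT1X and MT2A) and 2 lower (MTF1 and SLC30A1) in G4, for 4 higher and 1 lower (MTF1) in G10, and for 3 higher (MT1E, MT1F and MT1X) and 1 lower (MTF1) in H3. Nothing is read from these counts, because the members were chosen from the same contrasts. The median difference of all genes was -0.06 in D4, -0.04 in G4, 0.00 in G10 and 0.01 in H3.

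Summed over the family, metallothionein transcripts came to 48.9 and 56.6 CPM in the control, 171 and 221 CPM in D4, 93.6 and 116 CPM in G4, 166 and 197 CPM in G10, and 83.8 and 74.9 CPM in H3. The sum was 3.72-fold the control in D4, 3.44-fold in G10, 1.99-fold in G4 and 1.51-fold in H3, and no clone library overlapped the control. Its make-up differed as well as its size. MT2A contributed 75.3% and 79.6% of the sum in the control and 73.2% to 84.5% in D4, G4 and G10, but 64.2% and 60.6% in H3. For every 100 CPM of MT2A there were 20.5 and 16.3 CPM of MT1X in the control, 12.3 to 25.7 CPM in D4, G4 and G10, and 35.9 and 41.5 CPM in H3. MT1F made up 5.01% and 5.47% of the sum in H3 and 0.69% to 1.83% elsewhere. The H3 libraries thus lay outside the range of all 8 other libraries in all 3 measures of make-up. The shares of this paragraph use the split of reads between paralogous genes, which is uncertain as said above.

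**Figure D3:**
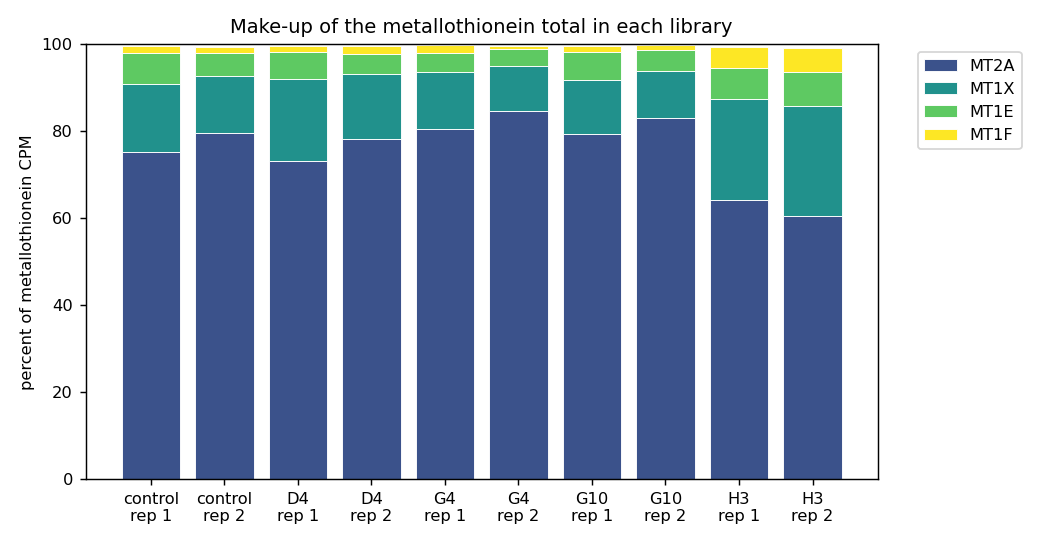
Share of the metallothionein sum (y axis, percent of CPM) held by MT2A, MT1X, MT1E and MT1F in each of the 10 libraries (x axis); the small remainder is from other family members. MT2A holds 73.2% to 84.5% in the 8 libraries of the control, D4, G4 and G10 and 60.6% to 64.2% in H3.

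Levels of different genes can be compared only per length. Per kilobase of annotated exon, in the control, MT2A stood at 31.5 CPM, SLC30A1 at 7.75 CPM, MTF1 at 6.37 CPM, MT1X at 4.199 CPM, MT1E at 3.09 CPM and MT1F at 0.436 CPM. In D4 MT2A stood at 115 CPM and MT1X at 18.4 CPM per kilobase. The lengths are all annotated exon bases of a gene, 1773 for MT1X against 450 in its main coding transcript, so these values depend on the annotation and no order of MT1X and SLC30A1 is read from them.

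Most genes next to the metallothioneins on the chromosome did not differ as these did. Within 1 Mb of the cluster 28 other genes were tested, AC026461.1 among them, and their median log2 difference was -0.46 in D4, 0.01 in G4, -0.13 in G10 and -0.03 in H3. By the limma rule 2 of them were higher and 18 lower in D4, 4 and 2 in G4, 2 and 7 in G10, and for H3 8 and 7. Over all genes, 17.5% were higher and 23.8% lower in D4, 10.9% and 16.4% in G4, 17.8% and 19.1% in G10, and for H3 23.9% and 22.1%, so the neighbours stood clear of that background in the count of lower genes in D4. Among the neighbours that were higher were AC026461.1, in all 4 clones, and NLRC5, a regulator of antigen presentation genes, in G4 (0.72), G10 (0.60) and H3 (1.52). NUP93, a nuclear pore gene 45.9 kb from the cluster, had log2 differences of -0.41 in D4, 0.16 in G4, 0.06 in G10 and 0.23 in H3. BBS2, a cilium gene at -87.9 kb on the other side, had -0.34, 0.06, 0.05 and 0.40 in the same order. In that order, HERPUD1 had -1.34, -0.68, -0.75 and -0.58, and DOK4 had -1.71, -0.76, -1.25 and -0.59. Both were lower in all 4 clones by the limma rule. CES1 was higher in D4 (0.50) and H3 (3.36), was lower in G10 (-2.05) and did not pass in G4 (0.25). NLRC5, NUP93, BBS2, HERPUD1, DOK4 and CES1 were named after their values were seen. Around MTF1, 20 neighbours had medians of -0.14 in D4, -0.08 in G4, -0.10 in G10 and -0.06 in H3, smaller in size than the differences of MTF1 in G4, G10 and H3 and about equal to it in D4. Around SLC30A1, 13 neighbours had a median of 0.08 in G4, where SLC30A1 itself stood at -0.39. No test was made of members against neighbours.

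**Figure D4:**
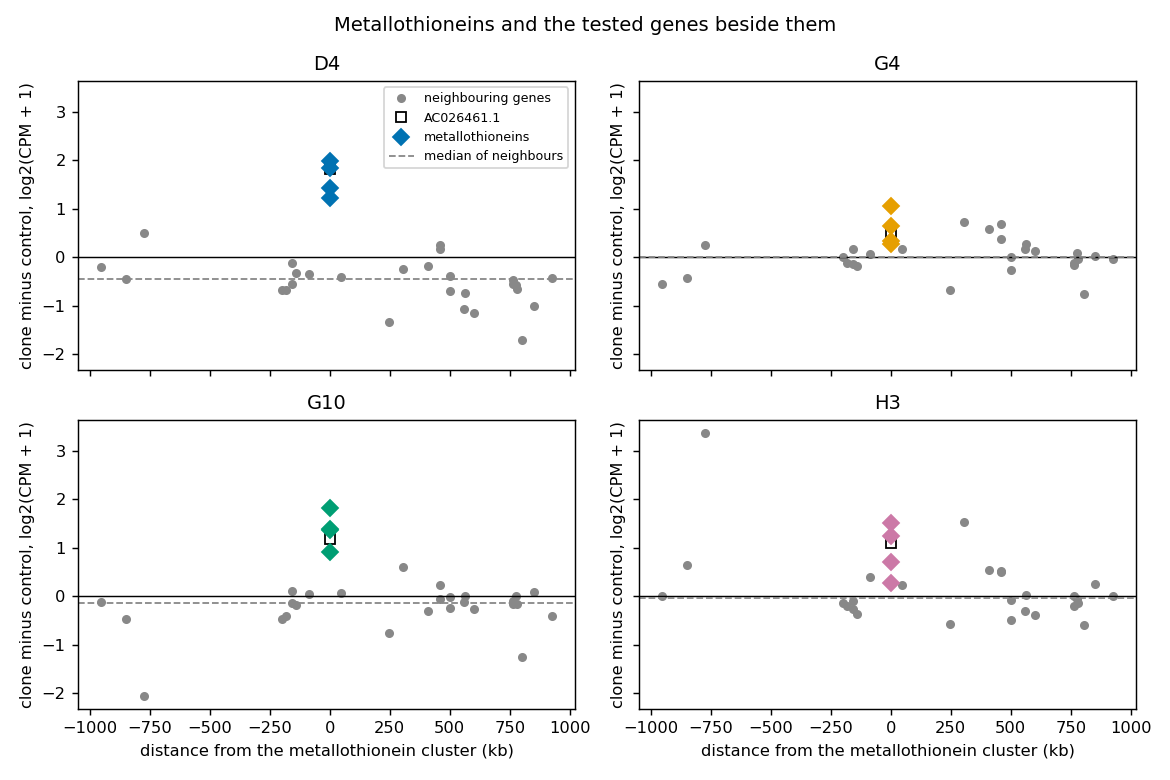
Clone minus control in log2(CPM + 1) units (y axis) of the 4 metallothioneins tested (diamonds), the overlapping transcript AC026461.1 (open square) and the other tested genes within 1 Mb (grey), by distance from the cluster in kb (x axis), in 1 panel per clone. The dashed line is the median of the neighbours, -0.46 in D4 and between -0.13 and 0.01 in the other clones.

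Genes with the profile nearest to that of MT2A were found by the root mean square difference of log2(CPM + 1) over the 10 libraries, each profile less its mean, among 12757 genes of at least 5 CPM on average. They were LOXL2 (0.211), a lysyl oxidase of the matrix, PAWR (0.316), PODXL (0.327), a surface sialomucin, INHBA (0.351), an activin subunit, and ARHGAP29 (0.353). LOXL2 stood at 14.9 CPM in the control, 46.0 in D4, 23.7 in G4, 41.9 in G10 and 14.7 in H3. MT1E ranked 27 (0.454) and MT1X 114 (0.542), behind genes outside the family. These ranks depend also on the size of the differences, which the added 1 shrinks in genes as low as MT1E. MT1F, MT1G and MT1M, under 5 CPM on average, were not ranked. SLC30A1 ranked 5159 and MTF1 7478. The genes nearest to SLC30A1 were SETD2 (0.055), a histone methyltransferase, PARP2 (0.06), a DNA repair enzyme, CAPN7 (0.064), C14orf166 (0.067) and CHAMP1 (0.069), and each of these was lowest in G4, as SLC30A1 was. PARP2, for example, stood at 28.5 CPM in G4 and between 41.1 and 43.0 CPM in the other groups. All profiles come from the same 10 libraries, and likeness over 5 groups is a description only.

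The other zinc transporters, lists that were themselves drawn up with earlier results of these data known, were read by the same limma fit. Of 10 other exporters of the SLC30 family and TMEM163, 6 could be tested. The count was 0 higher and 1 lower in D4, 0 and 1 in G4, 2 and 0 in G10, and for H3 1 and 1, with medians of 0.00, -0.09, -0.05 and 0.01, close to those of all genes. By clone, 10.9% to 23.9% of all genes were higher and 16.4% to 23.8% lower. SLC30A5, a transporter of the early secretory pathway, fell in D4, from 58.2 ± 1.95 to 37.6 ± 3.79 CPM (SD, n = 2), by 0.62 on the log2 scale (limma adjusted p = 3.83e-05), and its differences in the other 3 clones, -0.15 to -0.03, did not pass. SLC30A7, a Golgi transporter, fell by 0.47 in H3 (adjusted p = 0.00495), a call lost without H3 replicate 1 (0.0946). SLC30A4, of endosomal vesicles, rose by 0.68 in G10 (adjusted p = 0.0132), lost without control replicate 1 (0.115) or G10 replicate 1 (0.127). SLC30A3, the synaptic vesicle transporter, rose by 0.65 in H3 from 0.4 to 1.2 CPM (adjusted p = 0.00886), lost without control replicate 2 (0.0586).

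The zinc importers of the SLC39 (ZIP) family bring zinc into the cytosol. Of 14, 12 were tested, and 1 was higher and 3 lower in D4, 1 and 5 in G4, 3 and 6 in G10, and for H3 2 and 2, with medians of -0.10, -0.20, -0.23 and -0.09. All genes had medians of -0.06, -0.04, 0.00 and 0.01. By clone, 10.9% to 23.9% of them were higher and 16.4% to 23.8% lower. The share of all genes that were lower in every clone was not counted. SLC39A14 (ZIP14), a carrier of zinc, manganese and iron, was the 1 zinc transporter of 18 tested that was lower in all 4 clones. It fell from 328 ± 5.43 CPM (SD, n = 2) in the control by 0.55 in D4 (limma adjusted p = 1.49e-05), 0.26 in G4 (0.0141), 0.48 in G10 (8.48e-05) and 0.91 in H3 (6.48e-08). In G4 it no longer passed without control replicate 1 (adjusted p = 0.0871) or G4 replicate 2 (0.119). SLC39A8 (ZIP8), which also carries cadmium and manganese, went in both directions: it fell by 0.97 in G4 (adjusted p = 1.05e-05) and by 0.72 in H3 (5.36e-05), and rose by 0.46 in G10 (0.00318), while D4 stood at -0.01. Its level was 40.2 CPM in the control, 20.02 in G4, 24.1 in H3, 55.8 in G10 and 39.9 in D4.

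SLC39A6 (ZIP6) fell by 0.76 in D4 (limma adjusted p = 1.09e-06) and by 0.28 in G10 (0.00993, but 0.114 without control replicate 1 and 0.0609 without G10 replicate 2). SLC39A3 (ZIP3) rose by 0.55 in G10 (0.00599, but 0.0835 without G10 replicate 2) and by 0.46 in H3 (0.0141, but 0.0607 to 0.0642 without control replicate 2 or either H3 replicate). SLC39A4 (ZIP4), the intestinal zinc importer, had the largest differences of the list in D4 and H3 (-1.20 and -1.18) and passed in no clone (adjusted p = 0.0578 and 0.0553), and it was named after its values were seen. Across both families 0 of 18 transporters were higher in all 4 clones, 4 passed in opposite directions in different clones and 4 passed in none. The matching shares over all genes were not counted.

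**Figure D5:**
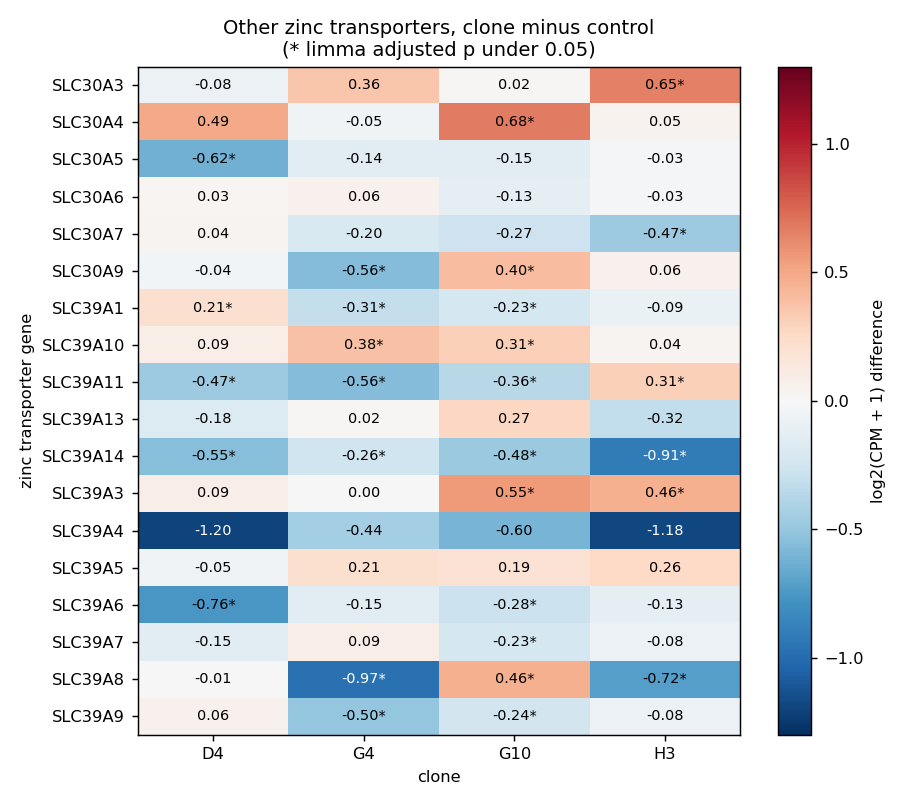
Difference of each clone (x axis) from the control, in log2(CPM + 1) units, for the 18 zinc transporter genes tested other than SLC30A1 (y axis), with colour and printed value for the difference and an asterisk for a limma adjusted p under 0.05. The row of SLC39A14 is negative with an asterisk in all 4 clones, and that of SLC39A8 runs from -0.97 in G4 to 0.46 in G10.

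Copper handling genes, relevant because metallothioneins also bind copper, were all 9 tested. D4 and G4 each had 1 higher and 3 lower, G10 had 0 higher and 1 lower, H3 had 2 higher and 1 lower, and the medians were -0.27, -0.09, -0.06 and 0.11. All genes had medians of -0.06, -0.04, 0.00 and 0.01. By clone, 10.9% to 23.9% of them were higher and 16.4% to 23.8% lower. ATOX1, the copper chaperone that serves the secretory pathway, fell by 0.38 in D4 (limma adjusted p = 0.000984) and by 0.34 in H3 (0.00191), and rose by 0.34 in G4 (0.00441). ATP7B, a copper-exporting ATPase, fell by 0.83 in G4 (0.00043) and by 0.47 in G10 (0.0137, but 0.0979 without control replicate 1 and 0.0597 without G10 replicate 1). CCS, the copper chaperone of superoxide dismutase, fell by 0.51 in G4 (0.00418, but 0.0541 without control replicate 2) and by 0.40 in D4 (0.0123, but 0.122 without control replicate 2 and 0.193 without D4 replicate 1). SOD1, that enzyme, rose by 0.40 in H3 (adjusted p = 0.000164).

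Genes of the metal and oxidant stress response, which share inducers with the metallothioneins, were mostly lower in D4 and G10. A link with the level of metallothionein RNA was not tested. All 16 were tested: 2 were higher and 11 lower in D4, 7 and 2 in G4, 2 and 13 in G10, and for H3 4 and 7, with medians of -0.39, 0.22, -0.57 and -0.12. Over all genes 23.8% were lower in D4, 19.1% in G10 and 22.1% in H3, and 10.9% were higher in G4. HMOX1, haem oxygenase and a classical metal-induced gene, fell from 69.9 ± 0.75 CPM (SD, n = 2) to 28.9 in D4, 40.0 in G4 and 16.9 in G10, and rose to 99.6 in H3. Its log2 differences were -1.25 (limma adjusted p = 7.05e-08), -0.79 (2.92e-05), -1.99 (4e-10) and 0.50 (0.000659). FTL, the light chain of the iron store ferritin, fell by 1.02 in D4 (2.53e-09) and by 1.22 in G10 (4.11e-10), and stood at -0.17 in G4 and -0.03 in H3. HSPA6, a heat-inducible HSP70 chaperone, fell by 1.62 in D4, G10 and H3 (adjusted p of 1.05e-06 to 1.77e-06), and stood at -0.42 in G4. SLC40A1, the iron exporter ferroportin, rose by 1.25 in D4 (3.52e-05), 2.35 in H3 (3.65e-08) and 0.56 in G10 (0.0208, but 0.229 without control replicate 1 and 0.0914 without G10 replicate 2), from 1.45 CPM in the control.

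Glucocorticoid response genes passed in both directions, with more lower than higher in each clone. The list includes the glucocorticoid receptor gene NR3C1 (lower in D4, G10 and H3) and HSD11B2 (lower in H3). Both were named after their values were seen. Of 12, 10 were tested, FKBP5 and ZBTB16 staying at or under 0.2 CPM, and 2 were higher and 4 lower in D4, 1 and 4 in G4, 3 and 5 in G10, and for H3 1 and 6, with medians of -0.14, -0.24, -0.30 and -0.46. All genes had medians of -0.06, -0.04, 0.00 and 0.01. By clone, 10.9% to 23.9% of them were higher and 16.4% to 23.8% lower. SCNN1A, the alpha chain of the epithelial sodium channel, rose in every clone, from 15.1 CPM to 164 in D4, 29.3 in G4, 39.5 in G10 and 87.0 in H3, by 3.35, 0.91, 1.33 and 2.45 on the log2 scale (limma adjusted p of 5.2e-14 to 1.01e-06). ERRFI1, a feedback inhibitor of the EGF receptor, fell in every clone, by 0.63 in D4, 0.32 in G4, 0.63 in G10 and 0.73 in H3 (1.16e-06 to 0.00556), and the G4 call was lost without control replicate 1 (0.0602) or G4 replicate 2 (0.0623). DUSP1, a MAP kinase phosphatase, fell by 0.98 in D4, 0.89 in G10 and 1.40 in H3 (7.94e-07 to 0.000121) and stood at -0.05 in G4. PER1, a clock gene, fell by 0.88 in G10 (6.75e-05) and by 1.01 in H3 (1.11e-05), and stood at 0.23 in D4 and 0.00 in G4.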

How the data were processed

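RNA from 10 KYSE-410 libraries (5 groups of 2, made with the Ovation Solo kit) was deposited by the authors as counts-per-million (CPM) per gene, 1 column per library, per the file headers, and 0 columns were left unused. The submitters' processing notes list STAR 2.5.3a, HTSeq and hg38. The strand setting, the annotation release and the treatment of reads that match several genes are not given in the sources used here.

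Members were matched by symbol, and positions, exons and coding sequences came from GENCODE release 29 (58039 of 58302 genes matched by identifier). Promoters came from RefSeq (GRCh38.p14). Each library summed to 1000001 CPM. Reads were estimated by undoing a scaling to a common total, which returned 99.85% to 100.0% of the values checked.

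The fit was limma 3.58.1 (R 4.3.3; trend and robust moderation) on log2(CPM + 1), with a pseudocount of 1, over genes of at least 1 CPM in at least 2 libraries (17664), with all 10 libraries, 5 residual degrees of freedom and no covariate. P-values were adjusted by Benjamini-Hochberg over all genes tested, at 0.05. The fit was first tested on simulated data, with libraries drawn independently and a small set of known genes changed alike in every clone. Changes that differ between clones were not simulated, so this was a check of the code and not of the design. The 2 libraries of a group share a colony or clone. A p-value therefore sets a difference against the spread between such libraries, pooled over the 5 groups and moderated over all genes.

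The members and lists were chosen with earlier results of these data known. Named genes were all 8 members, other metallothionein symbols above 0, INPPL1, up to 4 genes per list with the largest mean difference over the 4 clones among those past the threshold in at least 1 clone, and the 5 nearest profiles of MT2A and of SLC30A1. Alternatives were median-of-ratios factors, trimmed means of M values, no filter, a mean of at least 5 CPM, a pseudocount of 0.1, limma-voom on the estimated reads, the replicate number as a block, and leaving out each library. Their use on single-clone differences of list genes was added after the data were seen. Tables and plots used Python 3.11.15, numpy 2.4.6, pandas 2.3.3 and matplotlib 3.10.9.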

Additional observations from a re-analysis of the deposited data

Results flagged for a closer look

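Among the named genes, 4 results stood out because clones lay on opposite sides of the same control. For HMOX1, SLC39A8 and ATOX1 a limma adjusted p under 0.05 was required in both directions, and also between the clones compared. For SLC30A1 only non-overlap with the control libraries was required. HMOX1 was higher in H3 than in G10 by 2.49 ± 0.1 on the log2 scale (SE), with 0.50 in H3 and -1.99 in G10 against the control. SLC39A8 was higher in G10 than in G4 by 1.43 ± 0.11 (SE), with 0.46 and -0.97 against the control. ATOX1 was higher in G4 than in D4 by 0.72 ± 0.08 (SE), with 0.34 and -0.38 against the control. SLC30A1 had both G10 libraries above and both G4 libraries below the control libraries, 0.51 apart on the log2 scale (0.12 and -0.39). Its G10 difference is about the size of its standard error (0.1). It did not pass the limma rule, from which nothing is read for the members, as they were chosen from the same contrasts.

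Each pair of clones was picked as the highest and the lowest. The p-values between clones therefore served only as a filter and are not given, and the differences stand as descriptions. Genes of the lists outside the named ones also passed in both directions. Examples, chosen after their values were seen, were SGK1 (0.70 in G10 and -1.64 in H3), GCLC (0.64 in G4 and -1.26 in G10) and SLC30A9 (0.40 in G10 and -0.56 in G4).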

How the results depend on the processing

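Of 187 alternative counts of genes, 181 stayed within 1.5 times the reported count, and the 6 that moved came from leaving out a library. The G4 count, 4827, ran from 2852 to 5389 when a library was left out (2852 without G4 replicate 1, 3044 without control replicate 1, 3071 without G4 replicate 2 and 3213 without control replicate 2). The count for the mean of the 4 clones, 7105, ran from 4503 to 7529 (4503 without control replicate 1 and 4633 without control replicate 2). Such fits have fewer residual degrees of freedom, and the lone library of a group is assumed to vary like the others. With the replicate number as a block the counts were 7923 in D4, 5491 in G4, 7217 in G10 and 8756 in H3, against 7286, 4827, 6531 and 8133. The deviations of same-numbered libraries correlated at 0.213 to 0.414 in the 6 pairs among the control, D4, G4 and G10 and at -0.237 to -0.083 in the 4 pairs with H3. Since not every pair was positive, the numbers were not taken to pair the samples, although replicate 2 differed from replicate 1 in a shared way in the other 4 groups.

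Of 404 alternative values of the member differences, 359 moved by less than the spread between libraries, or not at all, and 45 by more. Many of the 359 could not move. A difference is unchanged by either filter setting, by the replicate block and by leaving out a library of another clone. The 359 is therefore no measure of stability. The largest moves were in MT1F, whose H3 difference ran from 1.48 to 2.33 (the upper end from limma-voom) and whose G4 difference fell to -0.02 without G4 replicate 1. SLC30A1 ran from -0.02 to 0.19 in D4 and from -0.05 to 0.20 in H3. Of 48 single-clone calls of the 20 named list genes, 12 were lost under at least 1 alternative, each time by leaving out 1 library. Depth limits MT1F and MT1G, whose reads number 8 to 54 and 0 to 4 per library.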
